A study of Mus musculus with 6 samples.

Results

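The 3 Notch receptors Notch1, Notch2 and Notch3, the 4 ligands Dll1, Dll4, Jag1 and Jag2, and the 3 target genes Hes1, Hey1 and Nrarp were examined in intestinal adenomas of mice with different Apc truncations. These 10 genes were picked by name as core Notch components out of 34866 genes in the deposited table. They were not picked by their values, but earlier results of these data were known. All 10 were among the 16536 genes with enough counts to be tested. RNA-seq had been performed on adenomas of Apc1322T/+ mice and of ApcMin/+ mice, with 3 libraries each. All mice were C57BL/6J, were aged between 100 and 120 days, carried 1 mutant Apc allele in the germline and received no listed treatment. The ApcMin allele encodes an early truncation with essentially no remaining function, whereas the longer Apc1322T product keeps part of the β-catenin binding region. Both groups therefore lack a wild-type or normal-mucosa reference, and the question these libraries can answer is whether Notch components differ between adenomas of the 2 truncations. The adenomas were excised whole, and several extracts of the same mouse were usually pooled, so each library mixes epithelium with vessels, stroma and immune cells. In such bulk samples, fewer cells of a type and less RNA per cell cannot be told apart.

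Notch signalling passes between touching cells. A ligand of the Delta-like (Dll) or Jagged (Jag) family on the surface of 1 cell binds a Notch receptor on its neighbour, ADAM proteases and then γ-secretase cut the receptor, and the freed intracellular part enters the nucleus, where it joins the DNA-binding protein RBPJ and a Mastermind coactivator to switch on targets such as Hes1, Hey1 and Nrarp. In the intestinal crypt, Notch activity keeps progenitors dividing and steers them towards the absorptive fate, since the repressor HES1 holds down Atoh1 (Math1), the transcription factor that starts the secretory lineages. Cells that express Atoh1 present Dll1 and Dll4 to their neighbours. Several components also act outside the epithelium: Dll4 and Hey1 in endothelium, Notch3 in the mural cells of vessels.

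RefSeq promoter sequence (GRCm38.p6, a window from 250 bases before to 50 bases after the annotated start) was found for 8 of the 10 members, with 9 windows in all. Hes1 and Hey1 had no window, so Nrarp is the 1 target gene among them. The target gene Nrarp is shown because its product acts as a feedback inhibitor of the pathway that induces it. The 250 bases upstream of its start, chr2:25180508-25180757 on the plus strand, read as follows, with every CpG in capitals.
Nrarp: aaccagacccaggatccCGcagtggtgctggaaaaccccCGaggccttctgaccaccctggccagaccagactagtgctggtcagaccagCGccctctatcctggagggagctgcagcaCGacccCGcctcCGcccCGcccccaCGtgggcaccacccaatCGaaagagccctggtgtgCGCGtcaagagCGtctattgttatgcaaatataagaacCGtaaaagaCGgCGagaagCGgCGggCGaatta
The core letters bound by RBPJ, TGGGAA, searched on both strands, occurred in 0 of the 9 member windows, against 26.2% of 65 windows of the other pathway genes and 25.6% of all 32851 windows. This says only that these letters are not in those windows. Lfng and Hes5, pathway genes outside the 10 members, had matches on both strands and are shown for comparison, with the match in capitals (TTCCCA where it lies on the opposite strand): Lfng, which encodes a glycosyltransferase that modifies Notch receptors, at chr5:140607194-140607223 and chr5:140607221-140607250, and Hes5, a Notch target related to Hes1, at chr4:154960685-154960714 and chr4:154960829-154960858, all on the plus strand.
Lfng, opposite strand: ccagctgggtggTTCCCAgccccttgtccg
Lfng, same strand: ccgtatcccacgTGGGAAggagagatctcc
Hes5, opposite strand: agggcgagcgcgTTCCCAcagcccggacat
Hes5, same strand: ggccgccgagtgTGGGAAcggccgcggcgc
The member windows had a median GC content of 63.7%, against 61% for the other pathway genes and 52.7% for all windows, and a median of 23 CpG dinucleotides against 22 and 7. The Jag2 window, chr12:112929446-112929745, held 86.0% GC and 63 CpG.

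Estimated counts summed to between 23132461 and 33518324 per library, at which depth 3 counts correspond to between 0.0895 and 0.13 CPM, counts relative to the library's total. The smallest member count was 118, for Notch3, so all members lay well above that limit, which covers counting error only. Expression is given below as log2 CPM, and log2 fold changes above 0 mean a higher level in ApcMin. At the study's threshold of an adjusted p under 0.01, edgeR's quasi-likelihood test called 0 of the 16536 genes (0.0%) and 1 (0.00605%) at 0.05, while 2495 genes (15.1%) had an unadjusted p under 0.05, 7.49% higher and 7.6% lower in ApcMin. DESeq2, the tool with which the study applied its threshold, called 194 of 17503 genes (1.11%) at 0.01 and 473 (2.7%) at 0.05. Several cell type markers separated the genotypes, and their values are set beside the members further on.

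No member passed the threshold between the genotypes. Of the 10 members, 7 had a positive and 3 a negative log2 fold change, and 52.4% of all genes tested were positive. An unadjusted p under 0.05 was seen for 2 of the 10, Jag2 and Notch1, both higher in ApcMin, against the 15.1% of all genes and the 7.49% that were higher. In 1 member, Jag2, the 3 libraries of each genotype did not overlap, whereas 21.0% of all genes had groups apart (11.0% higher and 9.96% lower in ApcMin). The median log2 fold change was 0.24 over the members and 0.017 over all genes. With 10 members, these shares are too coarse to be called like or unlike those over all genes tested.

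**Figure D1:**
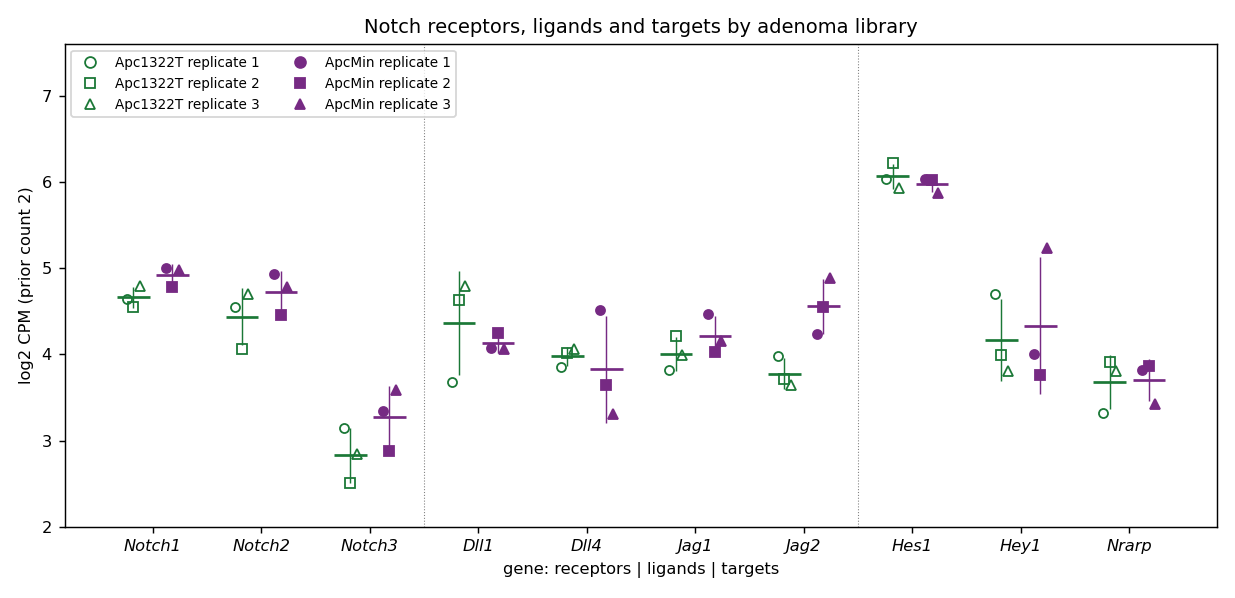
Log2 CPM (vertical axis) of each of the 10 members in the 3 Apc1322T libraries (open green symbols) and the 3 ApcMin libraries (filled purple symbols), with the symbol shape giving the replicate number and a line at each group mean. Jag2 is the gene whose groups are apart, from 3.64 to 3.98 in Apc1322T and from 4.24 to 4.88 in ApcMin.

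Among the receptors, the log2 fold changes were all positive, but none passed the threshold. Notch1, the main receptor of the intestinal epithelium together with Notch2, lies on chromosome 2 (26457903 to 26516663, minus strand, GRCm38). It measured 4.64, 4.55 and 4.79 log2 CPM in Apc1322T replicates 1, 2 and 3 and 4.997, 4.78 and 4.98 in ApcMin replicates 1, 2 and 3. The groups overlapped only in that Apc1322T replicate 3 reached the level of ApcMin replicate 2. Its log2 fold change was 0.26 ± 0.11 (SE, 3 libraries per group), with a 95% interval from 0.0033 to 0.52, an unadjusted p of 0.0478 and an adjusted p of 0.327. Leaving out 1 library at a time gave values between 0.21 and 0.33.

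Notch2, its partner receptor (chromosome 3, 98013527 to 98150361, plus strand), measured 4.55, 4.07 and 4.70 in Apc1322T and 4.94, 4.46 and 4.78 in ApcMin. The groups overlapped, and the lowest value in each was that of replicate 2. They differed by a log2 fold change of 0.28 ± 0.20 (adjusted p = 0.51), which was 0.11 without Apc1322T replicate 2 and 0.16 without ApcMin replicate 1, and up to 0.41 in the other fits that omit 1 library. Notch3, a receptor best known from vascular mural cells (chromosome 17, 32120820 to 32166852, minus strand), measured 3.14, 2.51 and 2.84 in Apc1322T and 3.34, 2.88 and 3.59 in ApcMin. Its groups overlapped too. The log2 fold change was 0.45 ± 0.25 (adjusted p = 0.412), the largest of the 3 receptors, with a 95% interval from -0.14 to 1.05. It was 0.28 without ApcMin replicate 3 and 0.30 without Apc1322T replicate 2. Apc1322T replicate 2 was the lowest library for all 3 receptors, and it also held the lowest summed endothelial (154 CPM), mural (223 CPM) and fibroblast (603 CPM) markers. The part of those cells in the receptor values was not tested.

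The ligands did not move together. Jag2, a Jagged ligand encoded on chromosome 12 (112907819 to 112929776, minus strand), was the member with the largest difference. Its estimated counts were 429, 274 and 283 in Apc1322T replicates 1, 2 and 3 and 674, 593 and 931 in ApcMin replicates 1, 2 and 3, or 3.98, 3.71 and 3.64 against 4.24, 4.55 and 4.88 log2 CPM. Every ApcMin library was above every Apc1322T library. The fold was 1.74 (95% interval 1.27 to 2.37), a log2 fold change of 0.80 ± 0.19, and 10.4% of all genes differed at least as much in either direction. The unadjusted p was 0.00431 and the adjusted p 0.257 in edgeR, and DESeq2 gave an adjusted p of 0.0251, under 0.05 but not under 0.01. Leaving out each library in turn gave log2 fold changes between 0.62 and 0.94, with adjusted p between 0.0712 and 0.692.

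Jag1, the other Jagged ligand (chromosome 2, 137081456 to 137116644, minus strand), measured 3.82, 4.21 and 3.99 in Apc1322T and 4.47, 4.03 and 4.15 in ApcMin. Its groups overlapped, with a log2 fold change of 0.21 ± 0.16 (adjusted p = 0.537). It was 0.073 without ApcMin replicate 1, 0.13 without Apc1322T replicate 1 and 0.32 without Apc1322T replicate 2.

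Dll1, a Delta-like ligand of the secretory progenitors (chromosome 17, 15367354 to 15376872, minus strand), measured 3.67, 4.63 and 4.80 in Apc1322T and 4.07, 4.25 and 4.06 in ApcMin. The ApcMin libraries were close together, and the Apc1322T libraries held both the lowest value (replicate 1) and the 2 highest. The log2 fold change was -0.31 ± 0.28 (adjusted p = 0.599), and -0.099 without Apc1322T replicate 3 and -0.21 without Apc1322T replicate 2. Without Apc1322T replicate 1 Dll1 was at -0.58, with an adjusted p of 0.0674, and in that fit 205 genes had an adjusted p under 0.05, against 1 with all libraries. Dll4, a Delta-like ligand of secretory cells and of sprouting vessels (chromosome 2, 119325784 to 119335962, plus strand), measured 3.85, 4.02 and 4.06 in Apc1322T and 4.51, 3.65 and 3.31 in ApcMin. The ApcMin libraries enclosed the whole Apc1322T range. The log2 fold change was -0.060 ± 0.31 (adjusted p = 0.934), and its sign turned without ApcMin replicate 2 (0.057) or ApcMin replicate 3 (0.17).

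**Figure D2:**
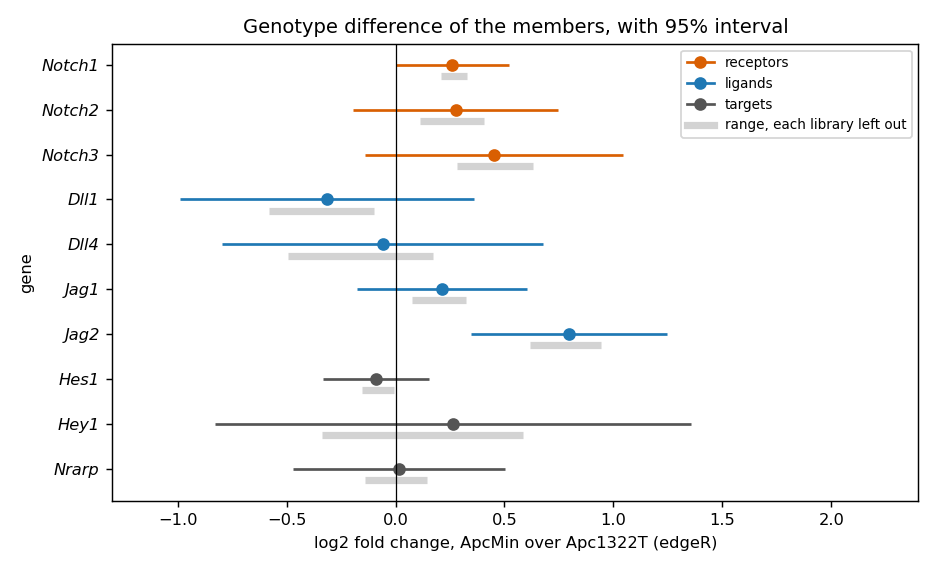
Log2 fold change of each member between ApcMin and Apc1322T (horizontal axis), with points for the edgeR estimate, coloured bars for its 95% interval and grey bars for the range over the fits that omit 1 library. The intervals of Jag2 (0.35 to 1.25) and Notch1 (0.0033 to 0.52) lie above 0 and those of the other 8 members include it, none being adjusted for the number of genes.

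None of the 3 target genes showed a difference larger than its standard error. Hes1, the transcriptional repressor that carries the Notch signal to Atoh1 (chromosome 16, 30064384 to 30067796, plus strand), measured 6.04, 6.22 and 5.93 in Apc1322T and 6.04, 6.02 and 5.87 in ApcMin. The groups overlapped, with Apc1322T replicate 1 just above the highest ApcMin library, replicate 2 further above it and replicate 3 inside the ApcMin range. Its log2 fold change was -0.090 ± 0.10 (adjusted p = 0.682), and the 95% interval from -0.33 to 0.15 is the narrowest of the 10 members. Without Apc1322T replicate 2 the value was -0.0087. Nrarp, the feedback inhibitor whose upstream sequence is printed above (chromosome 2, 25180758 to 25183339, plus strand), measured 3.32, 3.92 and 3.80 in Apc1322T and 3.82, 3.86 and 3.42 in ApcMin. The low libraries were Apc1322T replicate 1 and ApcMin replicate 3. Its log2 fold change was 0.016 ± 0.20 (adjusted p = 0.976), and the sign turned in 3 of the 6 fits with a library left out (-0.14 without Apc1322T replicate 1, -0.043 without ApcMin replicate 1, -0.064 without ApcMin replicate 2).

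Hey1, a repressor related to Hes1 that is prominent in endothelium (chromosome 3, 8663359 to 8667256, minus strand), varied most between libraries. It measured 4.71, 3.99 and 3.81 in Apc1322T and 4.004, 3.76 and 5.23 in ApcMin. One library in each group was high, Apc1322T replicate 1 and ApcMin replicate 3, the libraries in which Nrarp was lowest in its group. The log2 fold change was 0.26 ± 0.45 (adjusted p = 0.793), and without ApcMin replicate 3 it was -0.34. The 95% intervals of the targets, up to 0.15 for Hes1, 0.50 for Nrarp and 1.36 for Hey1, mark the largest increase in ApcMin inside each interval.

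Comparing levels between genes requires a scale per transcript length, for which the counts were divided by the longest annotated transcript and set to the same sum in every library. On this length-scaled level Hes1 was the most abundant member, with a median of 85.4 and a range over the 6 libraries from 72.0 to 91.0, above 89.0% of the tested genes. Hey1 followed with a median of 12.3 (9.95 to 30.4), then Dll1 at 9.95, Nrarp at 9.6, Dll4 at 7.29, Jag2 at 6.67, Jag1 at 5.63, Notch1 at 5.34, Notch2 at 4.24 and Notch3 at 1.93 (1.19 to 2.93). Hes1 lay above Hey1 in every library, whereas each later gene overlapped its neighbour in this order. With merged exons in place of the longest transcript, Notch2 stood above Notch1 (medians 4.96 and 4.25), Jag1 above Jag2 (6.49 and 5.91) and Nrarp above Hey1 and Dll1, and Hes1 stayed first at 74.0. The 4 ligands had higher medians over the 6 libraries than the 3 receptors on both length scales, but this order did not hold within either genotype. On the longest-transcript scale, the Apc1322T median of Notch1 (4.96) was above those of Jag1 (4.88) and Jag2 (4.34). In ApcMin the median of Notch1 (6.51) was above that of Jag1 (6.16).

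**Figure D3:**
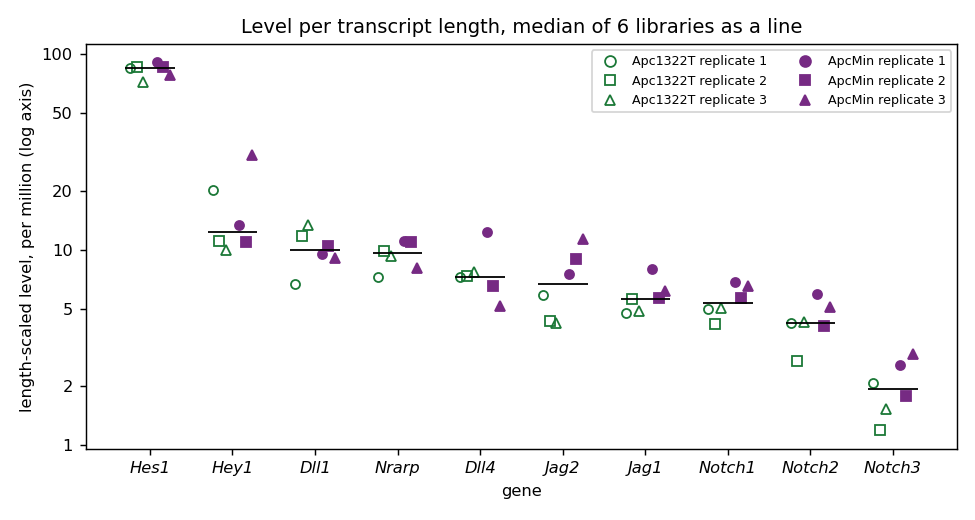
Length-scaled level (vertical axis, logarithmic) of the members in the 6 libraries, ordered by the median, which is drawn as a line; open green symbols are Apc1322T and filled purple symbols ApcMin. Hes1 lies between 72.0 and 91.0, and no other member exceeds 30.4.

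The genes around these members in the pathway showed no call either. Of 63 further pathway genes, 58 were tested and 5 (Dll3, Dlk1, Dlk2, Hes3 and Hes5) had too few counts. Hes5 had 0 counts in 5 libraries and 2 in ApcMin replicate 3. Of the 58, 30 were higher and 28 lower in ApcMin, with a median log2 fold change of 0.034. 0 passed an adjusted p of 0.01 in edgeR, 13 (22.4%) had an unadjusted p under 0.05, and 14 (24.1%) had groups that did not overlap, beside the 15.1% and 21.0% of all genes. DESeq2 placed 0 under 0.01 and 1, Maml2, under 0.05.

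Receptor processing genes leaned in different directions. Of the 10 genes for receptor cleavage, 7 were lower in ApcMin (median log2 fold change -0.095). Psenen, a part of γ-secretase, was at -0.36 ± 0.13 (adjusted p = 0.309) and Aph1a, another part of it, at -0.21 ± 0.082 (adjusted p = 0.312). Of the 5 glycosylation genes, 2 were higher and 3 lower. Lfng, one of the Fringe enzymes that change which ligands a receptor answers to, measured 4.58, 4.22 and 4.16 in Apc1322T and 4.87, 4.81 and 4.91 in ApcMin, and its groups did not overlap. Its log2 fold change was 0.53 ± 0.13 (adjusted p = 0.262 in edgeR and 0.0672 in DESeq2). Rfng, another Fringe gene, was at -0.34 ± 0.14 (adjusted p = 0.331). Of 13 genes for ubiquitination and endocytosis of ligands and receptors, 6 were higher and 7 lower, with Neurl1a at 0.68 ± 0.26 (adjusted p = 0.311) and Dtx3 at 0.48 ± 0.16 (adjusted p = 0.287) under an unadjusted p of 0.05. Notch4, the receptor of endothelium, measured 4.35, 3.90 and 4.08 in Apc1322T and 4.90, 4.12 and 4.39 in ApcMin, with overlapping groups and a log2 fold change of 0.39 ± 0.22 (adjusted p = 0.428), which was 0.14 without ApcMin replicate 1.

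In the nuclear complex, 8 of 12 genes were higher in ApcMin (median 0.080). Maml2, a Mastermind coactivator, measured 1.69, 1.45 and 1.43 in Apc1322T and 2.39, 2.22 and 2.58 in ApcMin. The groups did not overlap, and the log2 fold change of 0.89 ± 0.21 had an adjusted p of 0.257 in edgeR and 0.0294 in DESeq2. Maml3 was at 0.39 ± 0.16 (adjusted p = 0.327) and the corepressor gene Ncor1 at -0.36 ± 0.13 (adjusted p = 0.308). Rbpj, the DNA-binding core of the complex, differed little, at 5.51, 5.35 and 5.35 against 5.67, 5.54 and 5.54, although its groups were apart (0.18 ± 0.088, adjusted p = 0.372).

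Of the 5 genes listed as Groucho corepressors, 3 were higher and 2 lower, with Tle2 at 0.79 ± 0.21 (adjusted p = 0.278) and Aes at -0.23 ± 0.094 (adjusted p = 0.322). Of the 5 other Hes and Hey genes tested, 3 were higher and 2 lower, and 0 had an unadjusted p under 0.05. Heyl was at 0.36 ± 0.24 (adjusted p = 0.494). Of the 6 secretory fate factors, 3 were higher and 3 lower. Neurog3, which starts the enteroendocrine lineage, had between 6 and 7 counts in the Apc1322T libraries and 48, 12 and 16 in ApcMin (1.52 ± 0.56, adjusted p = 0.311). Atoh1 measured 3.29, 3.84 and 3.87 in Apc1322T and 3.67, 3.83 and 2.47 in ApcMin. Its lowest libraries in each group were Apc1322T replicate 1 and ApcMin replicate 3, the same libraries that were high for Hey1 and low for Nrarp. The log2 fold change of Atoh1 was -0.25 ± 0.37 (adjusted p = 0.758), and 0.069 without ApcMin replicate 3.

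**Figure D4:**
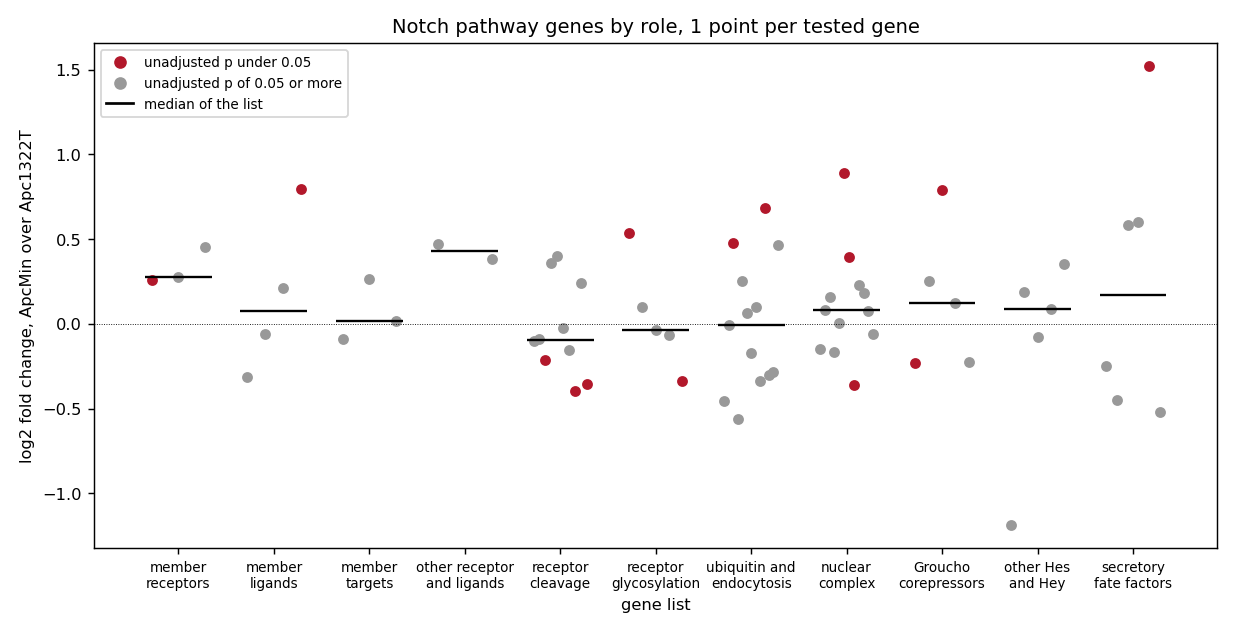
Log2 fold change between ApcMin and Apc1322T (vertical axis) of every tested member and pathway gene, grouped by role; red points have an unadjusted p under 0.05 and black lines mark list medians. Genes of most lists lie on both sides of 0, and the medians of all lists but other receptor and ligands lie between -0.095 and 0.28.

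Cell type markers were compared in the same libraries, and of 56 marker genes tested 0 passed an adjusted p of 0.01 in edgeR. In edgeR 21 (37.5%) had an unadjusted p under 0.05, beside 15.1% of all genes. DESeq2 placed 6 under an adjusted p of 0.01 (Cdh5, Pdgfra, Agr2, Krt14, Krt6a and Krt4), beside 1.11% of all genes. All 7 epithelial markers had lower values in ApcMin, 4 of them with an unadjusted p under 0.05. Their summed level was between 13900 and 17100 CPM in Apc1322T and between 11400 and 13300 CPM in ApcMin, without overlap. All 9 endothelial markers (154 to 247 against 231 to 321 CPM), all 8 mural markers (223 to 372 against 397 to 482 CPM) and all 6 fibroblast markers (603 to 1520 against 982 to 3300 CPM) had higher values in ApcMin. Within the mural list, log2 fold changes ranged from 0.11 (Rgs5) and 0.27 (Mcam) to 0.88 (Myh11), and 1 gene, Acta2, had groups apart. The list does not tell mural cells of vessels from other smooth muscle. Leukocyte markers were at 43.8 to 58.7 against 57.5 to 105 CPM, with 5 of 6 higher. Glial and neuronal markers were at 3.45 to 3.85 against 3.69 to 5.46 CPM.

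Within the epithelium, all 5 goblet markers had lower values in ApcMin (4970 to 7460 against 3310 to 4970 CPM). Fcgbp and Agr2 had groups apart, whereas Muc2, Tff3 and Clca1 overlapped between the groups. The sum of the 3 Paneth markers was higher (903 to 1470 against 1550 to 1970 CPM), and most of it was Lyz1. Each of the 3 overlapped between the groups. Ang4 ranged from 5.49 to 220 CPM, with mean log2 CPM of 5.60 in Apc1322T and 5.54 in ApcMin. Its log2 fold change was 0.77 ± 1.17, and as low as -0.46 with a library left out. The 3 enteroendocrine markers overlapped in their sum (41.9 to 72.8 against 49.5 to 64.9 CPM). Squamous keratinocyte markers, which intestinal epithelium is not known for, were at 11.3 to 13.5 CPM in Apc1322T and 38.6 to 52.5 CPM in ApcMin, with 6 of the 7 tested higher. Krt14, Krt6a and Krt4 had log2 fold changes of 2.51, 3.41 and 2.61, whereas Krt13, Krt15 and Ivl overlapped between the groups and Dsg3 was lower with the groups apart (-0.81 ± 0.33, unadjusted p = 0.0446, adjusted p = 0.321). Krt14 was the 1 gene of the 16536 tested in edgeR with an adjusted p under 0.05 (0.0485). In DESeq2, where 473 genes were under 0.05, Krt14, Krt6a and Krt4 were all under 0.01. The basal markers Krt5 and Trp63 had at most 14 counts in any library. No marker of any list was at 0 in all libraries. Jag2 is also expressed in squamous epithelium, and the part of any of these cells in its difference was not tested.

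Subtracting the mean log2 CPM of a marker list from that of a member gives a value that moves with the markers as well as with the member. It is not the level of the member inside those cells. The log2 fold changes of the epithelial markers ranged from -0.81 (Krt20) to -0.077 (Krt18). Those of the 9 endothelial markers ranged from 0.15 (Kdr) to 1.38 (Cdh5), and 2 of these genes, Cdh5 and Flt1, had groups apart. Relative to endothelial markers, Dll4 was at -0.21 ± 0.44 (SD, n = 3) in Apc1322T and -0.88 ± 0.54 in ApcMin, a difference of -0.66 (exact permutation test, two-sided, p = 0.2, adjusted 0.4), and -0.36 without ApcMin replicate 3. Hey1 relative to the same markers differed by -0.35 (exact p = 0.5, adjusted 0.75), with -0.061 without ApcMin replicate 1, -0.22 without ApcMin replicate 2 and -0.76 without ApcMin replicate 3. The level of Notch3 relative to mural markers differed by -0.11 (exact p = 0.8, adjusted 0.9). Relative to epithelial markers, Notch1 was at -6.29 ± 0.18 in Apc1322T and -5.63 ± 0.26 in ApcMin, a difference of 0.66 with no overlap. Hes1 was at -4.89 ± 0.22 and -4.58 ± 0.11, a difference of 0.31 with no overlap, where its own level had differed by -0.090. Without Apc1322T replicate 3 that relative difference of Hes1 was 0.19. Notch1 and Hes1 both had an exact p of 0.1 (adjusted 0.3), the smallest that 3 against 3 libraries allow, so this design cannot reach 0.05. Dll1 relative to epithelial markers differed by 0.16 (exact p = 0.9, adjusted 0.9).

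The same values for Jag2 were computed after its level had been seen and carry no test. Relative to epithelial markers Jag2 was higher in ApcMin by 1.17, with the groups apart. Relative to fibroblast markers it differed by -0.17 and relative to squamous markers by -0.55, with overlapping groups. Notch3 relative to fibroblast markers differed by -0.50, and by -0.13 without ApcMin replicate 1. Between the genotypes, Jag2 and the summed stromal and squamous markers were higher in ApcMin and the summed epithelial markers lower. The squamous sum rested on Krt14, Krt6a and Krt4, and the endothelial and fibroblast sums overlapped between the groups. In ApcMin replicates 1, 2 and 3, Jag2 measured 4.24, 4.55 and 4.88 log2 CPM. The fibroblast sums there were 3300, 982 and 1440 CPM, and the squamous sums 45.3, 52.5 and 38.6 CPM. The part of any of these cells in the Jag2 difference was not tested.

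**Figure D5:**
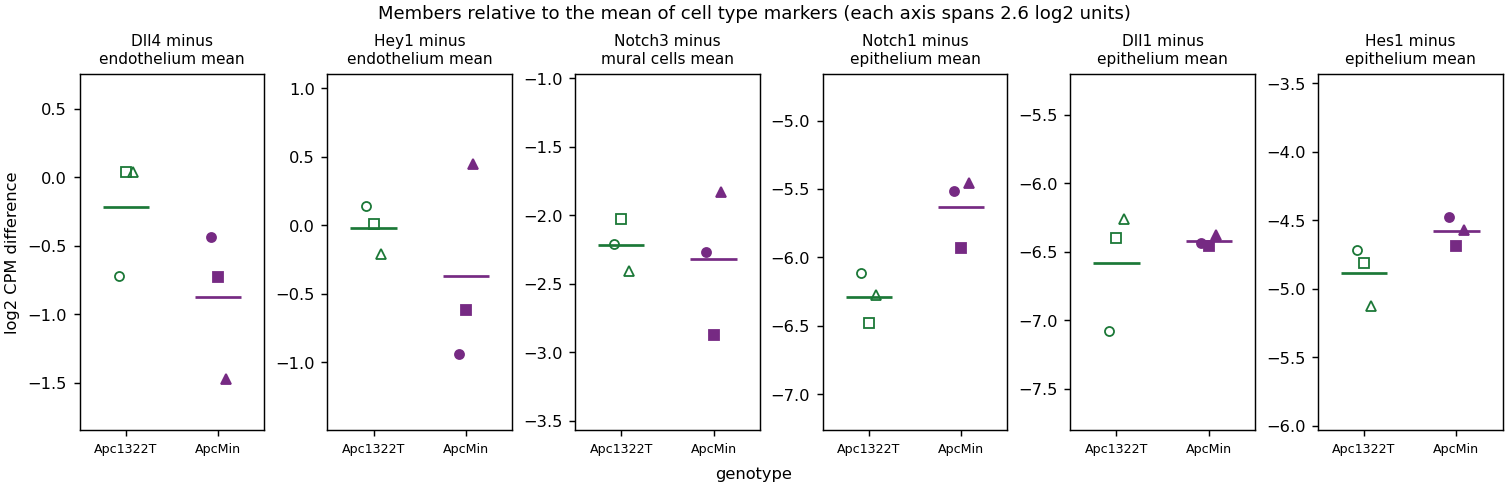
Log2 CPM of a member minus the mean log2 CPM of a marker list in each library (vertical axes, each spanning the same number of log2 units), for Apc1322T (open green) and ApcMin (filled purple), with lines at the group means and circle, square and triangle for replicates 1, 2 and 3. The groups are apart for Notch1 and Hes1 relative to epithelial markers and overlap for the other 4.

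The genes with the most similar pattern over the 6 libraries were sought for the 3 members with the widest range, as the root mean square difference of log2 CPM after centring each gene on its mean. For Hey1, whose range was 1.48 log2 units, they were Trim13 (0.113), Morn1 (0.127) and Derl3 (0.161). For Jag2 (range 1.24) they were Enpp4 (0.0742), Stat5a (0.0871) and Tmtc1 (0.0871), and for Dll4 (range 1.20) Lemd1 (0.0903), Cd59b (0.113) and Adcy2 (0.118). These values describe 6 libraries and were picked from 16536 genes.

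In the GENCODE M21 annotation of GRCm38, Notch1, Notch3, Dll1, Dll4 and Nrarp overlap a gene on the opposite strand, over 2559 bases in the case of Nrarp and Gm38287 and 21024 bases for Notch3 and Gm17276. None of these partners has a row in the count table, and Salmon's strand setting is not given in the sources used here, so antisense reads within the members' counts cannot be told apart.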

How the data were processed

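Whole adenomas of Apc1322T/+ and ApcMin/+ mice (3 libraries each) were profiled by stranded, single-end RNA-seq (50 bp reads, 1 μg of total RNA per library). The authors quantified the reads with Salmon on the GRCm38 transcriptome and deposited estimated counts per gene, not normalised. Salmon's strand setting and the annotation release are not given in the sources used here. Of the deposited values, 31.1% are not whole (tolerance 0.001), and they were rounded. Symbols were matched by identifier for 34652 of 34866 genes, and 214 have none here. Sequences are from RefSeq, positions from GENCODE M21.

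Genes were kept by filterByExpr (minimum count 10, minimum total 15), normalised by TMM and tested in edgeR 4.0.16 (R 4.3.3; quasi-likelihood, robust), with Benjamini-Hochberg adjustment over all genes tested and an adjusted p threshold of 0.01. SE was the absolute log2 fold change divided by the square root of F. Log2 CPM used a prior count of 2. Exact permutation tests ran over 20 assignments, adjusted over the 6 planned member and marker values. The procedure was tested on simulated counts.

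Members, pathway lists and marker lists were chosen with earlier results of these data known. The genes named are all 10 members; Notch4, Rbpj, Atoh1, Hes5 and Heyl; up to 3 genes per other pathway list with the smallest unadjusted p under 0.05, of which 1 is not reported here; marker genes; and the 3 genes most like each of the 3 widest-ranging members. Genes too low to test and Fabp6 are named in addition, after their values were seen. Alternatives were RLE and upper quartile scaling, DESeq2 1.42.0, limma-voom 3.58.1, no robust estimation, other filters, a prior count of 0.5, merged exons, each library left out and a replicate block. Labels number replicates 1 to 3 in both genotypes but name no shared litter or day. No pair of libraries was a copy, with a chi-square per gene of at least 24.2. The labels do not say that each library is a separate mouse, so p-values measure the spread between these libraries.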

Additional observations from a re-analysis of the deposited data

How the results depend on the processing

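All 80 member log2 fold changes from the 8 alternatives that keep every library had the direction of the reported value, and 54 of 60 did with a library left out. Those that turned, with the range over the 6 fits, were Dll4 (-0.49 to 0.17; 0.057 without ApcMin replicate 2 and 0.17 without ApcMin replicate 3), Hey1 (-0.34 to 0.59; -0.34 without ApcMin replicate 3) and Nrarp (-0.14 to 0.14; -0.14, -0.043 and -0.064 without Apc1322T replicate 1, ApcMin replicate 1 and ApcMin replicate 2). Atoh1 turned as well (-0.50 to 0.069). Of the values relative to markers, Notch3 minus mural markers ranged from -0.36 to 0.17 (0.17 without ApcMin replicate 2), Dll1 minus epithelial markers from -0.091 to 0.32 (-0.091 without Apc1322T replicate 1), and Jag2 minus fibroblast markers, chosen after seeing the data, from -0.47 to 0.40 (0.082 without Apc1322T replicate 2, 0.40 without ApcMin replicate 1).

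Over all genes, the 0 calls became 194 with DESeq2, 1 (Krt14) with no filter on low counts, 1 (Krt14) at an adjusted p under 0.05, and 0 to 1 with a library left out (1, Fabp6, without ApcMin replicate 3). The 2 members at an unadjusted p under 0.05 became 1 (Jag2) with RLE scaling, DESeq2 or no filter, and 1 to 3 with a library left out. It was 1, Jag2, without Apc1322T replicate 2 or ApcMin replicate 3, and 3 without ApcMin replicate 2, which added Notch3. Dll1 replaced Notch1 without Apc1322T replicate 1, and Dll4 did without ApcMin replicate 1. Jag2 was among them in every fit. The 13 other pathway genes at that level ranged from 4 to 23, the highest without Apc1322T replicate 1. The cause was not tested.

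Same-numbered libraries deviated from their group means with correlations of -0.286 to 0.164, and 1 of 6 libraries was most like its own number. These values gave no sign of pairing by number, but 3 same-numbered pairs cannot exclude a shared litter or day. With the replicate number as a block, 0 genes and 0 members were called, 2 members had an unadjusted p under 0.05 (Jag2 and Notch1), and the other pathway genes fell from 13 to 6. Depth limits genes near 3 counts, such as Hes5, and no member.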
